A study of Homo sapiens with 6 samples.

Results

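The kinetochore and centromere genes examined here are 37 genes chosen by symbol, of 18132 genes measured, and all 37 had at least 1 probe set assigned to that symbol alone. They hold 75 of the 44994 probe sets with a single gene symbol. The kinetochore is the protein assembly that forms on centromeric chromatin and holds a chromosome to spindle microtubules. Its inner layer, the constitutive centromere-associated network, sits on nucleosomes that carry the centromeric histone CENP-A, and its outer layer, built from the KNL1, MIS12 and NDC80 complexes, binds the microtubule. Many of these genes are transcribed late in the cell cycle, so in a bulk culture more dividing cells and more RNA per dividing cell cannot be told apart.

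Expression was measured on 6 Affymetrix arrays of 786-O, an established human renal cell carcinoma line. In the shNC group, 3 arrays, the cells received a negative control short hairpin RNA. In the shERCC6L group, also 3 arrays, the hairpin was directed against ERCC6L, a DNA translocase (PICH) found at mitotic centromeres and on the DNA threads that link separating chromatids. Hairpins were delivered by lentivirus. The labels give no dose, time after infection, number of hairpins or clone status, and do not say that replicates were separate cultures, so the p-values reflect only how far these arrays spread, and that spread may be technical.

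Values are linear probe set intensities, and each gene is read from its brightest probe set. Fold changes are shERCC6L over shNC on the log2(signal + 16) scale, which understates changes of dim genes. A gene is said to have risen or fallen when its limma p-value was under 0.05 after Benjamini-Hochberg adjustment across the 18132 genes. ERCC6L, measured by 1 probe set, read 239.9, 244.3 and 261.4 in shNC and 97.6, 97.5 and 97.8 in shERCC6L. On that probe set 39.3% of the control signal was left, a log2 fold change of -1.22 ± 0.04 (SE, n = 3 per group). Array medians lay between 60.04 and 61.56. Within groups, a typical member had a standard deviation of 0.05 (log2), and a typical gene 0.0517. Of the renal markers, PAX8 read 392.3 and VIM, the brightest, 14930 on average in shNC. The 8 renal markers summed to 23950 to 24300 per shNC array and to 22630 to 23260 per shERCC6L array. Single renal markers moved both ways. On the log2 scale NNMT fell by 0.66, CDH6 by 0.50 and EPAS1 by 0.36, while PAX8 rose by 0.34 and KRT18 by 0.13. PAX2, KRT8 and VIM did not pass. The leukocyte gene PTPRC read 7.31, the hepatocyte gene ALB 11.7 and the fibroblast gene DCN 11.3 on average in shNC, each the dimmest of its list. The others read higher: CD3E 27.7, CD68 127.4, APOA1 47.93, LUM 25.93 and PDGFRA 42.48. Of the endothelial genes, CDH5 read 17, PECAM1 54.22 and VWF 83.69 in shNC. The summed signal of the 3 leukocyte markers was 154.5 to 174.3 in shNC and 182.5 to 191.4 in shERCC6L, where CD68, which many non-immune cells also express, made up most of it, and its part in the results below was not tested. The sums of the 3 endothelial, 3 fibroblast and 2 hepatocyte markers were not higher in shERCC6L, at 149.9 to 153.3, 74.93 to 75.38 and 55.47 to 57.32, beside 151.9 to 157.9, 75 to 83.92 and 59.56 to 59.76 in shNC.

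Kinetochore transcripts were mostly modestly higher in cells with the ERCC6L hairpin, with a large fall of SPC24, a subunit of the NDC80 complex. Of the 37 genes, 25 rose, 3 fell (SPC24, PMF1 and CENPP) and 9 did not pass. Over all genes 18.2% rose and 13.4% fell. In either direction 28 of the 37 passed, beside 31.6% of all genes. In the brighter 9066 genes, those not below the median level, which hold 36 of the 37, 32.8% rose and 19.6% fell. At an adjusted p under 0.01, 20 members rose and 2 fell, beside 13.1% and 8.56% of all genes. The members' median log2 fold change was 0.188, beside -0.011 over all genes and 0.036 over the brighter 9066. Changes were small: CENPE, the mitotic kinesin of the outer kinetochore, rose most, 1.43-fold, and 12 of the 25 rises reached 1.2-fold. These 12 are 32.4% of the 37 genes, beside 7.69% of all genes that met this rule upward. SPC24 was the only member lower by at least 1.2-fold, a rule met by 5.49% of all genes downward. The groups did not overlap for 27 members that were higher and 3 that were lower, where 23.1% of all genes lay wholly higher and 20.3% wholly lower. Within shERCC6L, replicate 3 was the highest array for 23 of the 37 genes, and within shNC replicate 2 was the highest for 18. The same counts over all genes were not made. Without shERCC6L replicate 3, 21 members rose and 2 fell, and without shNC replicate 2, 22 rose and 2 fell.

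**Figure D1:**
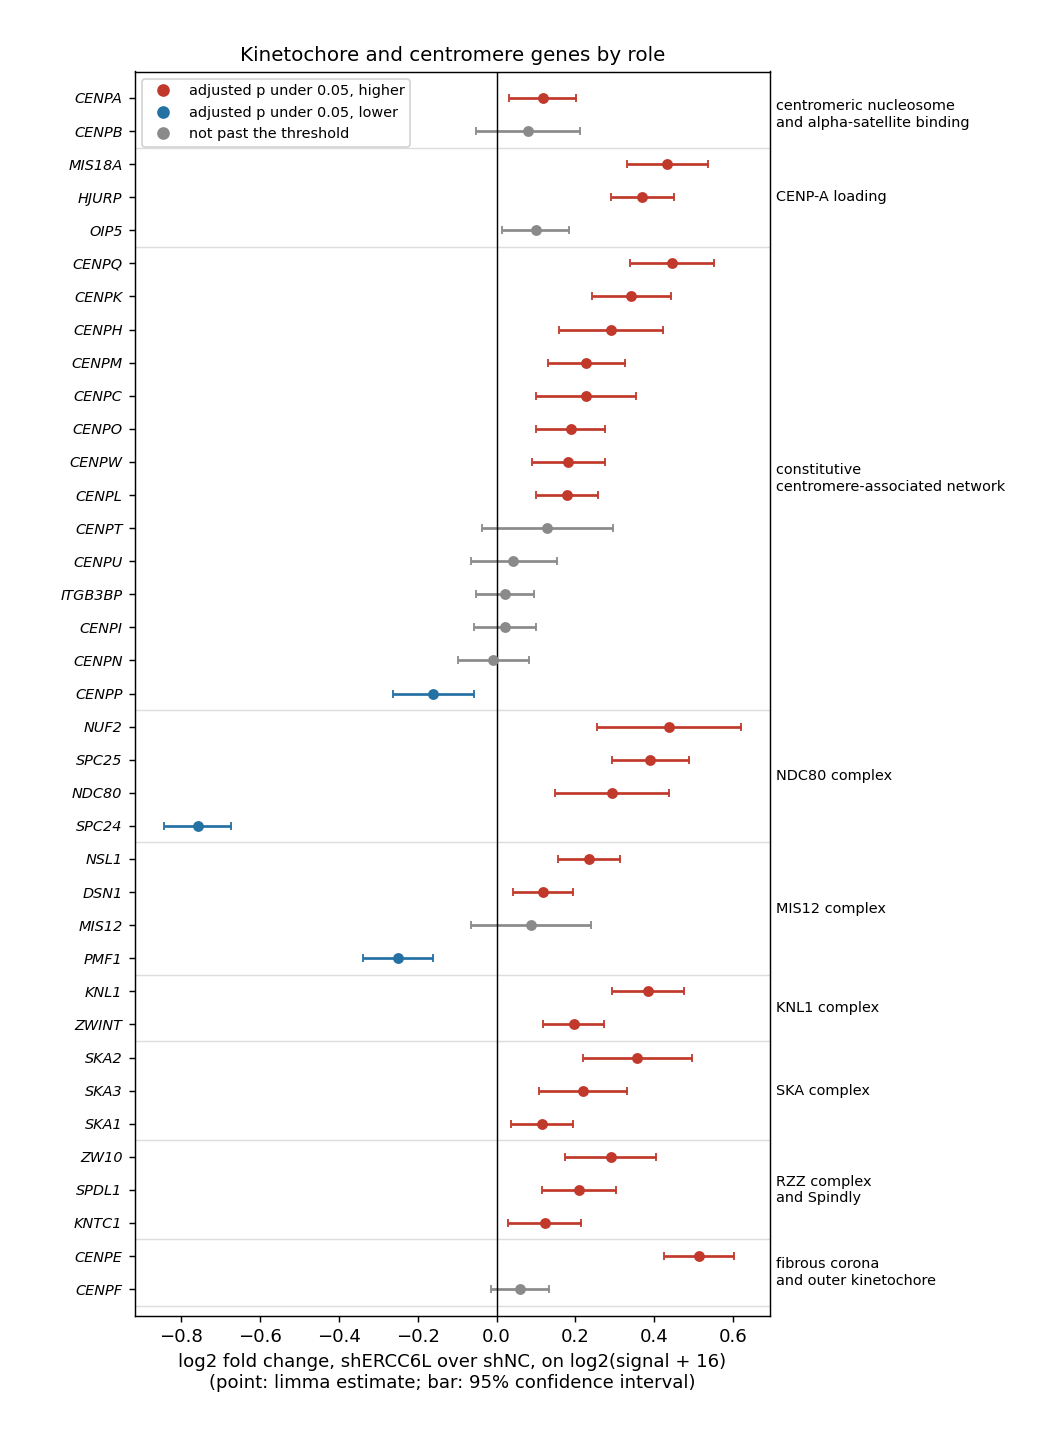
Log2 fold change (shERCC6L over shNC, log2(signal + 16) scale) of the 37 kinetochore and centromere genes, grouped by role; points are limma estimates from 3 arrays per group and bars are 95% confidence intervals. SPC24, at -0.76, lies apart from the other NDC80 complex subunits, at 0.29 to 0.44, and CENPE is the highest at 0.51.

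The NDC80 complex is the rod that grips the microtubule: NDC80 and NUF2 form the microtubule-binding head, and SPC24 and SPC25 form the end that docks on the inner kinetochore. NUF2 read 387.7, 448.5 and 420 in shNC and 525.9, 542.8 and 653.4 in shERCC6L. NDC80 read 795.5, 916.5 and 820.6 in shNC and 962.5, 1044 and 1108 in shERCC6L. SPC25 read 297, 318.2 and 312.6 in shNC and 394.1, 406.6 and 430.7 in shERCC6L. For these 3 genes every shERCC6L array lay above every shNC array. NUF2 rose by 0.44 ± 0.08 (log2, SE; adjusted p = 0.0028), NDC80 by 0.29 ± 0.06 (adjusted p = 0.0068) and SPC25 by 0.39 ± 0.04 (adjusted p = 0.00015).

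SPC24 went the other way. Its brightest probe set read 438.5, 420.7 and 420.8 in shNC and 252.8, 236.9 and 247 in shERCC6L. The groups lay far apart, and the difference was many times the spread within either group. SPC24 was 1.69-fold lower, at -0.76 ± 0.04 on the log2 scale (SE, n = 3 per group; limma adjusted p = 1.4e-06). It ranked 131 from the lowest of all 18132 genes. All 5 SPC24 probe sets fell, by 0.34 to 0.76 on the log2 scale, with adjusted p-values over all probe sets between 2.6e-06 and 0.0061. The next brightest read 284.1, 269.8 and 276.2 in shNC and 182.6, 187.3 and 189.9 in shERCC6L, and the dimmest 194.2, 166 and 185.6 against 131.7, 155.4 and 134.4. Even on that last probe set the groups did not overlap. With its probe sets averaged SPC24 fell by 0.50, and over all 16 alternative analyses its log2 fold change ran from -0.80 to -0.50. SPC24 and SPC25, which pair in the protein complex, thus moved in opposite directions at the RNA level. SPC25, NDC80 and NUF2 were each measured by 1 probe set.

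**Figure D2:**
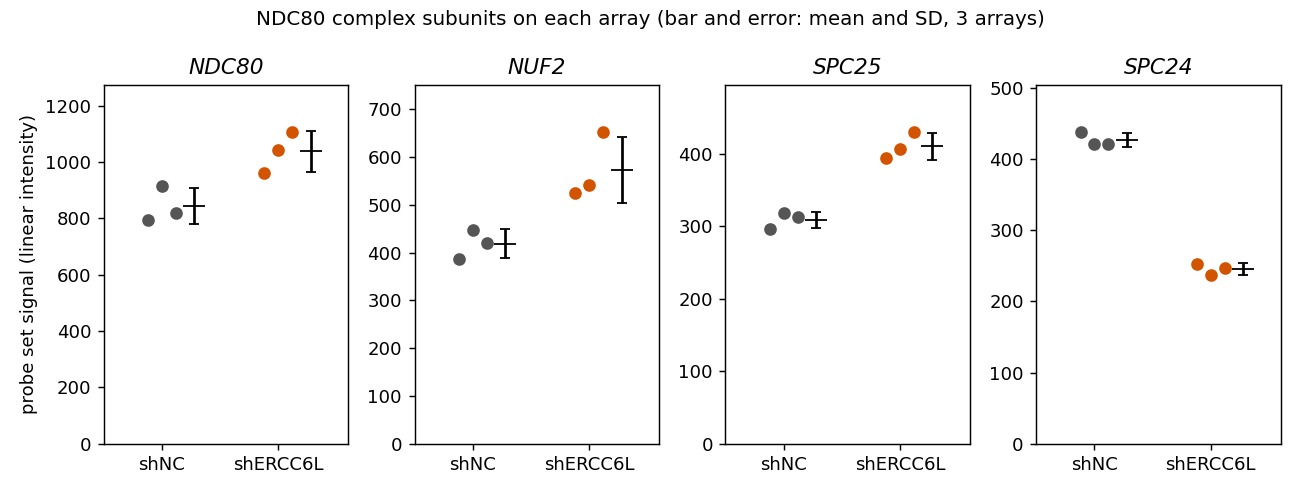
Linear probe set signal of the NDC80 complex genes on each of the 6 arrays, with the mean and SD of 3 arrays per group beside the points; each vertical axis starts at 0 and has its own scale. NDC80, NUF2 and SPC25 are higher on all shERCC6L arrays, while SPC24 falls from a mean of 426.7 to 245.6.

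The promoters of these genes are shown because the NDC80 complex holds members that moved oppositely; CENPE, the largest rise, and PMF1, another gene that fell, stand beside them. Each stretch covers 100 bases before to 30 bases after the annotated start site, 5′ to 3′ on the gene's strand, from RefSeq on GRCh38.p14. Capitals mark matches, on either strand, to the core of the cell cycle genes homology region or CHR (TTTGAA or TTCGAA, an element known from promoters of late cell cycle genes), to the CCAAT box (CCAAT) and to an E2F site (GCGGGAA or GCGCGAA).
NDC80, chr18:2571457-2571586, plus strand: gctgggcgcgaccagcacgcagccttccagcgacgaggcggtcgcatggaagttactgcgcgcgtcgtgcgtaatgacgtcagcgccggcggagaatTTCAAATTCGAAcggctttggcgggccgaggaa
NUF2, chr1:163321854-163321983, plus strand: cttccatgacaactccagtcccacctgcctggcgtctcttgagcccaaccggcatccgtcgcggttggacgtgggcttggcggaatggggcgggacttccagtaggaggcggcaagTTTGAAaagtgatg
SPC25, chr2:168890401-168890530, minus strand: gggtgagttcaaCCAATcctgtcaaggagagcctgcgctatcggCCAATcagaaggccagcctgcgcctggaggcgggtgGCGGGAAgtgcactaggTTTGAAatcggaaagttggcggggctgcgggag
SPC24, chr19:11155753-11155882, minus strand: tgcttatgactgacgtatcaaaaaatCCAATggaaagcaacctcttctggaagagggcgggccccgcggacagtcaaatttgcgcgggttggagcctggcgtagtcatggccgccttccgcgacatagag
CENPE, chr4:103198314-103198443, minus strand: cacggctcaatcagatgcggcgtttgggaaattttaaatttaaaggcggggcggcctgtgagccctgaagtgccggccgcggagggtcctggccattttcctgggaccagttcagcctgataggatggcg
PMF1, chr1:156212907-156213036, plus strand: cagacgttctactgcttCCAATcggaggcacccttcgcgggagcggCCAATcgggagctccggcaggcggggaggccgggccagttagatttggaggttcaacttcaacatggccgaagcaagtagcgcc

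A CHR match lay at the start site in NDC80 and SPC25 and just after it in NUF2, and none lay in the whole SPC24 window of 300 bases. SPC24 held 3 CCAAT matches there and PMF1 held 3. The CENPE window held no match of any of the 3 kinds. A match is a description of letters and not evidence of binding.

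The MIS12 complex links the inner kinetochore to the NDC80 complex, and its subunits divided. NSL1 read 582.9, 593 and 597.8 in shNC and 677.4, 708.2 and 710.2 in shERCC6L, a rise of 0.23 ± 0.04 (log2, SE; adjusted p = 8e-04). The other 2 NSL1 probe sets did not pass, at 0.15 and 0.02. PMF1 read 309.1, 304.7 and 332.4 in shNC and 265.3, 261.5 and 260.6 in shERCC6L, a fall of 0.25 ± 0.04 (adjusted p = 0.0012). No array of one group reached the other group for either gene. A read-through transcript joining PMF1 and BGLAP is annotated at this locus, and the single PMF1 probe set may not separate it. DSN1 rose by 0.12 ± 0.03 (adjusted p = 0.024), while MIS12 itself, at 0.09 ± 0.07, did not pass on its brightest probe set (adjusted p = 0.39). Both other MIS12 probe sets rose, by 0.20 and 0.14, and with probe sets averaged MIS12 passed at 0.14 (adjusted p = 0.0046). Without shERCC6L replicate 1 it also passed, at 0.17 (adjusted p = 0.024), over a range of 0.0046 to 0.76 in all alternatives.

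KNL1 is the scaffold on which the checkpoint proteins BUB1 and BUB3 assemble, and ZWINT is its partner, which helps to bring in the RZZ complex. KNL1 read 576.9, 597.2 and 630.2 in shNC and 772.2, 797.1 and 800.7 in shERCC6L. ZWINT read 1436, 1395 and 1430 in shNC and 1591, 1641 and 1656 in shERCC6L. Both rose without overlap between the groups, KNL1 by 0.39 ± 0.04 (log2, SE; adjusted p = 1e-04) and ZWINT by 0.20 ± 0.03 (adjusted p = 0.002). Of the 4 KNL1 probe sets 3 rose, and the other, with a mean of 9.09 in shNC, was at 0.01 and did not pass. Both ZWINT probe sets rose, the dimmer by more, 0.35.

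The SKA complex strengthens the grip of NDC80 on shortening microtubules, and all 3 of its genes rose. SKA2 read 463.7, 553.5 and 510.3 in shNC and 646.8, 634.4 and 685.4 in shERCC6L, a rise of 0.36 ± 0.06 (log2, SE; adjusted p = 0.0018). SKA3 read 149.5, 139.8 and 150.4 in shNC and 185.5, 163.7 and 171.5 in shERCC6L, a rise of 0.22 ± 0.05 (adjusted p = 0.0075). Neither gene's groups overlapped, and both SKA2 probe sets rose. SKA1 rose least, by 0.11 ± 0.04 (adjusted p = 0.032), and its other probe set, at 0.02, did not pass.

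The RZZ complex and its adaptor Spindly recruit the motor dynein to kinetochores. ZW10, an RZZ subunit, read 309.4, 310.3 and 300.1 in shNC and 406.7, 379.7 and 350.7 in shERCC6L, a rise of 0.29 ± 0.05 (log2, SE; adjusted p = 0.0022). SPDL1, which encodes Spindly, read 893.7, 938.7 and 888.4 in shNC and 1031, 1023 and 1100 in shERCC6L, a rise of 0.21 ± 0.04 (adjusted p = 0.0039). KNTC1, the large RZZ subunit, rose by 0.12 ± 0.04 with an adjusted p of 0.049, next to the threshold. Every shERCC6L array lay above the shNC arrays for all 3 genes.

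Of the outer corona genes, CENPE rose and CENPF varied with the probe set. CENPE read 435.2, 397.2 and 423.5 in shNC and 601.3, 607 and 604.5 in shERCC6L, so that the shERCC6L arrays were both higher and closer together. CENPE rose by 0.51 ± 0.04 on the log2 scale (SE, n = 3 per group; adjusted p = 1.9e-05), which ranked 229 from the highest of all genes. CENPF, a large coiled-coil protein of the nuclear matrix and kinetochore, was 0.06 ± 0.03 higher on its brightest probe set and did not pass (adjusted p = 0.22), although its groups did not overlap. Its other probe set read 707.5, 695.5 and 726.7 in shNC and 820.7, 809.7 and 844.1 in shERCC6L and rose by 0.21 ± 0.04 (adjusted p over all probe sets = 0.0019). With the 2 probe sets averaged CENPF passed at 0.14 (adjusted p = 0.0024, range over alternatives 0.0024 to 0.69).

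At the centromere itself, 2 of the 3 genes for loading CENP-A rose. HJURP, the chaperone that deposits CENP-A, read 1332, 1386 and 1386 in shNC and 1734, 1771 and 1814 in shERCC6L. MIS18A, a subunit of the complex that licenses this deposition, read 324.6, 306.6 and 318.4 in shNC and 410.3, 458.3 and 430.8 in shERCC6L. Both rose clear of the control arrays, HJURP by 0.37 ± 0.04 (log2, SE; adjusted p = 6.2e-05) and MIS18A by 0.43 ± 0.05 (adjusted p = 1e-04), and the second MIS18A probe set rose by 0.42. OIP5, which encodes the partner subunit MIS18-beta, was 0.10 ± 0.04 higher and did not pass (adjusted p = 0.079); the 95% interval of its change was 0.01 to 0.18. CENPA read 1191, 1186 and 1142 in shNC and 1314, 1232 and 1277 in shERCC6L, a rise of 0.12 ± 0.04 (adjusted p = 0.042). The other 3 CENPA probe sets, at 0.07, 0.05 and -0.03, did not pass, and with all 4 averaged the change was 0.05 (adjusted p = 0.29). CENPB, which binds a motif in alpha-satellite DNA, was at 0.08 ± 0.06 and did not pass (adjusted p = 0.36). Whether these changes differ from each other was not tested.

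In the constitutive centromere-associated network 8 of 14 genes rose, 1 fell and 5 did not pass. CENPQ, of the subcomplex that also holds CENPO, CENPP and CENPU, read 235.7, 246.9 and 231.5 in shNC and 312.4, 327.6 and 350.9 in shERCC6L. CENPK, of the subcomplex with CENPH, CENPI and CENPM, read 185.7, 183.6 and 180.6 in shNC and 232.3, 225.8 and 252.6 in shERCC6L. Neither gene's groups overlapped. CENPQ rose by 0.45 ± 0.05 (log2, SE; adjusted p = 1e-04) and CENPK by 0.34 ± 0.04 (adjusted p = 0.00034). CENPH rose by 0.29, CENPM by 0.23, CENPC, which ties CENP-A nucleosomes to the outer kinetochore, by 0.23, CENPO by 0.19, CENPW by 0.18 and CENPL by 0.18, with adjusted p-values from 0.0033 to 0.012. Members of the same subcomplex did not all pass. CENPI was at 0.02 beside CENPK and CENPH, and CENPU at 0.04 and ITGB3BP (CENP-R) at 0.02 beside CENPQ and CENPO. With quantile normalization CENPI and ITGB3BP were at -0.01, so neither has a settled direction.

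CENPI read 141.4, 143.6 and 137.3 in shNC and 140.4, 146.8 and 142 in shERCC6L, with fully interleaved groups. All 3 of its probe sets, like the 2 of CENPU and the 3 of ITGB3BP, did not pass. The 95% intervals on the brightest probe sets were -0.06 to 0.10 for CENPI, -0.07 to 0.15 for CENPU and -0.05 to 0.09 for ITGB3BP. CENPP read 43.9, 50.9 and 49.7 in shNC and 41.6, 41.6 and 40.9 in shERCC6L, a fall of 0.16 ± 0.05 (adjusted p = 0.025). It is the member whose level lay below the median of all genes. Its other 2 probe sets, both at 0.03, did not pass, and 8 other RefSeq genes overlap the CENPP locus. The fall of CENPP ended with probe sets averaged, at -0.03 (adjusted p = 0.47).

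CENPN, which binds CENP-A nucleosomes, and CENPT, which recruits the NDC80 complex, gave results that varied with the probe set. The brightest CENPN probe set read 936, 929.9 and 905.8 in shNC and 874.9, 948 and 934.9 in shERCC6L and was at -0.01 ± 0.04, with overlapping groups. Of its 5 other probe sets 4 rose, by 0.23 to 0.31, and with all 6 averaged CENPN passed at 0.17 (adjusted p = 0.0011, range over alternatives 0.0011 to 0.99). An antisense transcript is annotated at the CENPN locus. The brightest CENPT probe set was at 0.13 ± 0.07 and did not pass, with shERCC6L replicate 1 at 139.5 against 114.1 and 109.9 on the others. Of the 4 dimmer CENPT probe sets 3 rose, by 0.29 to 0.44, and 1 fell by 0.21. Averaged, CENPT passed at 0.21 (adjusted p = 0.00089, range over alternatives 0.00089 to 0.62).

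Across all 75 member probe sets, tested together with every other single-symbol probe set, 40 rose, 8 fell and 27 did not pass, where 17% of all probe sets rose and 12% fell. Of the 8 that fell 5 belong to SPC24. Among the 19 genes with several probe sets, 14 had all of them on the same side of 0. In 4 of the 19 (CENPB, CENPI, CENPU and ITGB3BP) no probe set passed, and in 1, CENPT, probe sets passed in both directions. The other 18 genes rest on 1 probe set each. Of the 37 brightest probe sets, 4 carry the suffix _x_at, used for sets with probes that may also match other sequences (CENPB, CENPH, CENPL and DSN1). Another 5 carry the suffix _s_at, used for sets whose probes match more than 1 transcript (CENPA, CENPC, CENPQ, MIS12 and ZWINT). Probe sets of a gene share their RNA and often their target, so they are not replicates.

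**Figure D3:**
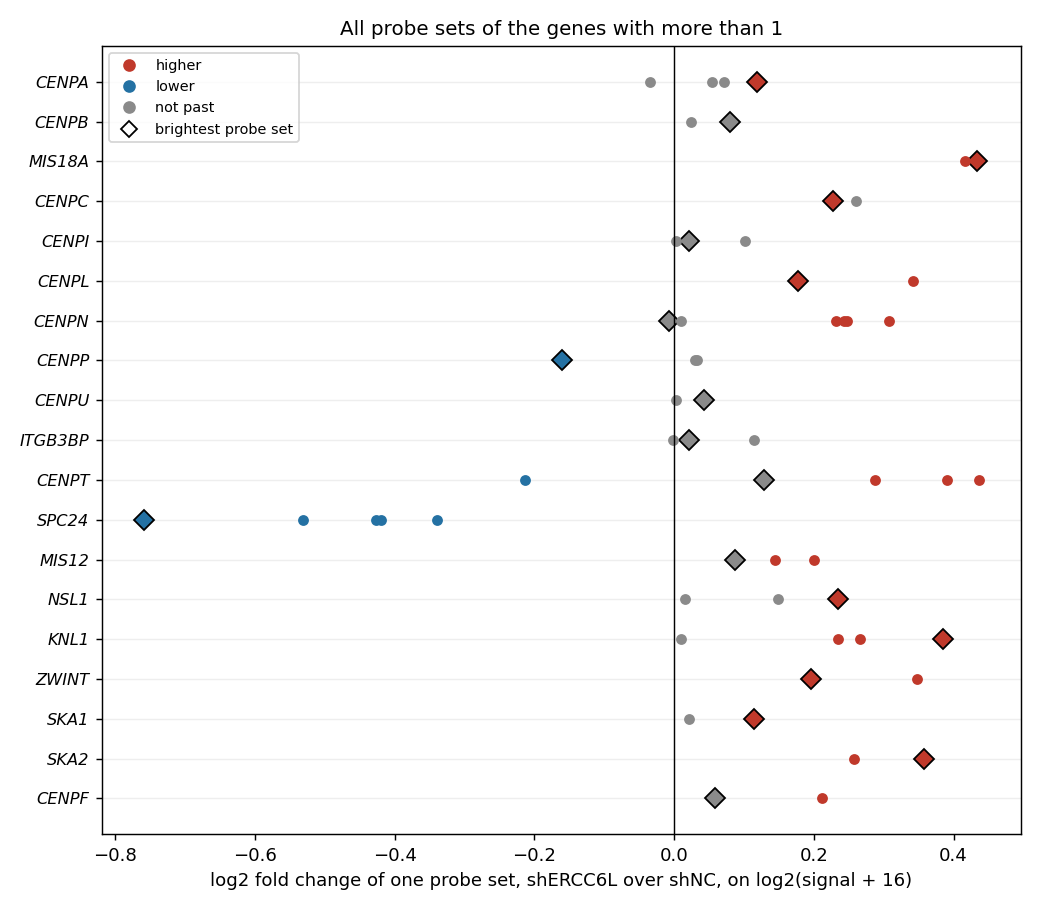
Log2 fold change of every probe set of the 19 genes with more than 1, coloured by call; diamonds mark the brightest set, used for the gene. All 5 SPC24 probe sets lie below 0, between -0.76 and -0.34, CENPN's brightest set lies at -0.01 while 4 others rose, and CENPT has calls on both sides.

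The 5 calls of smallest size, those of CENPA, CENPP, DSN1, SKA1 and KNTC1, were lost in several alternative analyses while the changes kept their direction. With quantile normalization all 5 were lost and the changes were smaller, at 0.09 for CENPA (adjusted p = 0.13), -0.14 for CENPP (0.054), 0.09 for DSN1 (0.075), 0.07 for SKA1 (0.15) and 0.09 for KNTC1 (0.11), and 21 members rose and 2 fell. With 1 array fewer, calls were often lost at a log2 fold change about as large as with all 6. Without shNC replicate 1, CENPA was at 0.13 (adjusted p = 0.067), DSN1 at 0.12 (0.051), SKA1 at 0.12 (0.069) and KNTC1 at 0.10 (0.16). Without shNC replicate 2, CENPA was at 0.12 (0.07), CENPP at -0.13 (0.082), SKA1 at 0.12 (0.062) and KNTC1 at 0.12 (0.11). Without shNC replicate 3, CENPA was at 0.10 (0.14), CENPP at -0.14 (0.086), DSN1 at 0.10 (0.089) and SKA1 at 0.11 (0.1). Without shERCC6L replicate 1, CENPA was at 0.10 (0.12), CENPP at -0.16 (0.054) and SKA1 at 0.11 (0.076), while OIP5 passed at 0.12 (adjusted p = 0.049). Without shERCC6L replicate 2, CENPP was at -0.16 (0.064), DSN1 at 0.12 (0.056) and KNTC1 at 0.13 (0.1). Without shERCC6L replicate 3, CENPA was at 0.12 (0.089), CENPP at -0.15 (0.063), DSN1 at 0.11 (0.069), SKA1 at 0.10 (0.097) and KNTC1 at 0.09 (0.15). Values in parentheses are limma adjusted p-values, and their range over the 16 refits was 0.014 to 0.29 for CENPA, 0.0043 to 0.47 for CENPP, 0.0056 to 0.089 for DSN1, 0.012 to 0.19 for SKA1, 0.028 to 0.16 for KNTC1 and 0.042 to 0.22 for OIP5. The other 23 calls, among them all 4 NDC80 complex genes, both KNL1 complex genes and CENPE, passed in the same direction in all 16 refits.

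Most genes of the partner list also rose. Of 31 other kinetochore, checkpoint and centromere genes measured here, 19 rose, 2 fell and 10 did not pass, with a median log2 fold change of 0.222. Over all genes 18.2% rose and 13.4% fell, and in the brighter 9066, which hold 30 of the 31, 32.8% and 19.6%. BIRC5 encodes survivin, of the chromosomal passenger complex, and rose by 0.66 ± 0.03 (log2, SE; adjusted p = 1.8e-06). SGO2, which protects centromeric cohesion, rose by 0.49 ± 0.04 (adjusted p = 1.4e-05). The checkpoint kinase gene TTK rose by 0.43 ± 0.04 (adjusted p = 3.2e-05) and CDCA8, the borealin subunit of the passenger complex, by 0.30 ± 0.03 (adjusted p = 0.00016). BUB1, which docks on KNL1, rose by 0.33, while ZWILCH, the remaining RZZ subunit, was at 0.09 and did not pass (adjusted p = 0.1). The genes that fell were CLASP2, a microtubule plus-end protein, by 0.37 ± 0.05 and the dynein regulator NDE1 by 0.18 ± 0.04.

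In a list of 24 cell cycle transcripts that are not among the 37 genes, 15 rose, 4 fell and 5 did not pass, with a median log2 fold change of 0.214. All 24 belong to the brighter 9066 genes, of which 32.8% rose and 19.6% fell, a share of falls near that of this list. AURKA, a spindle kinase, rose by 0.57 ± 0.04 (log2, SE), CDC20, the activator of the anaphase-promoting complex, by 0.47 ± 0.03 and MKI67, the proliferation marker, by 0.48 ± 0.04. HMMR, a spindle-associated protein, fell from 1907 ± 17.7 to 1252 ± 21 (SD, n = 3 per group), by 0.60 ± 0.03 on the log2 scale. FOXM1, a transcription factor that drives late cell cycle genes, fell by 0.39 ± 0.05, ASPM by 0.24 and KIF20A by 0.12. CCNA2 at 0.01, PCNA at 0.02 and MCM2 at 0.03 did not pass. Kinetochore genes and other cell cycle transcripts were thus higher on the same arrays, and the part that a change in the share of cycling cells had in their rise was not tested. SPC24 had the lowest log2 fold change of all genes in the 3 lists.

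**Figure D4:**
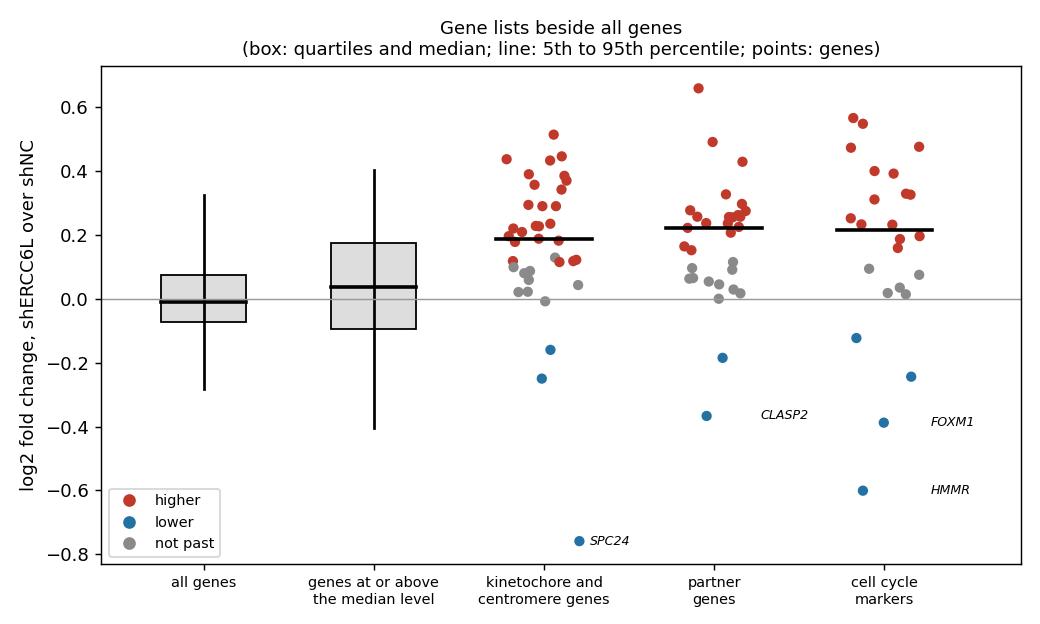
Log2 fold change (shERCC6L over shNC) of the 37 kinetochore and centromere genes, 31 partner genes and 24 cell cycle markers, each point a gene coloured by call and each bar a list's median, beside boxes for all genes and for the brighter 9066. The list medians lie between 0.188 and 0.222, against -0.011 and 0.036 for the boxes, and SPC24, HMMR, FOXM1 and CLASP2 lie lowest, at -0.37 or below.

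Promoter windows of 250 bases before to 50 bases after a start site were held in the RefSeq table for 31 of the 37 genes, and 4 of these had several windows. The 6 genes without a window, MIS18A, CENPH, CENPL, CENPM, KNL1 and KNTC1, all rose. The motif counts below therefore cover only 19 of the 25 genes that rose, but every gene that fell or did not pass. A CHR match was found in 16 of 31 genes (51.6%), beside 19.5% of all genes in the table and 17.6% of those measured here. Among members with a window, 13 of the 19 that rose, 3 of the 9 that did not pass and 0 of the 3 that fell had one. CHR shares were 40.7% in the partner list and 44.4% in the cell cycle list. CCAAT matches were found in 19 of 31 members (61.3%), beside 39.7% of all genes in the table, 42.4% of those measured here, 59.3% of the partner list and 77.8% of the cell cycle list. By call, 11 of the 19 that rose, 5 of the 9 that did not pass and all 3 that fell had one. E2F matches were found in 12 of 31 (38.7%), beside 10.2% of all genes in the table, 14.2% of those measured, 18.5% of the partner list and 27.8% of the cell cycle list. By call, 7 of the 19 that rose (36.8%), 5 of the 9 that did not pass (55.6%) and 0 of the 3 that fell had one. HJURP held a CHR match among 4 CCAAT matches, and ZWINT held CCAAT, E2F and CHR matches within a short stretch before the start. In the 36 member windows 0 pairs of matches overlapped. These shares describe letters in a fixed window and were not tested, and a missing match says nothing about a factor.

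**Figure D5:**
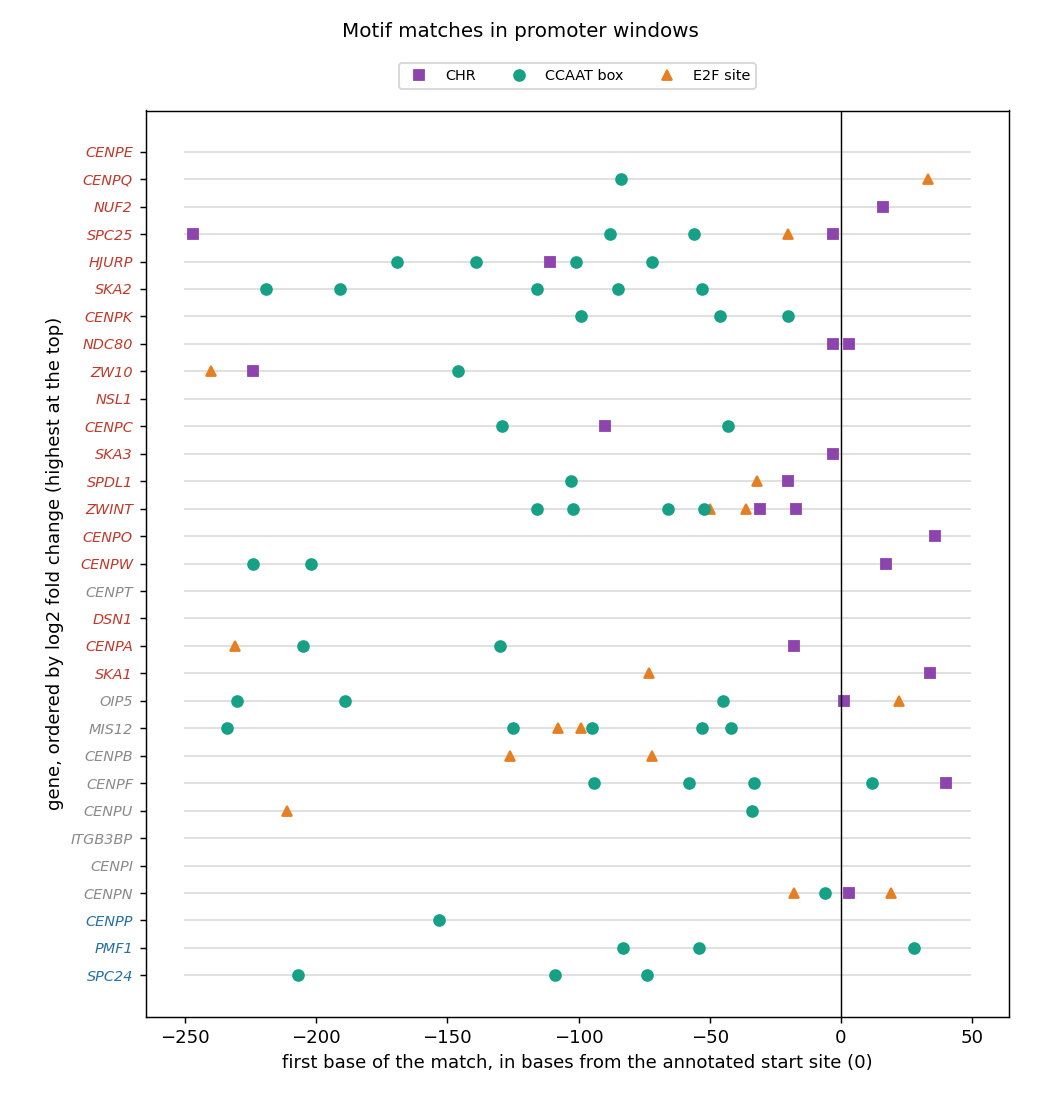
Positions of CHR, CCAAT and E2F matches in the promoter windows of 31 kinetochore and centromere genes, by distance of a match's first base from the annotated start site; genes are ordered by log2 fold change, name colour gives the call (red higher, blue lower, grey not past), and the several windows of 4 genes are drawn on 1 line. CHR matches lie in 16 genes, in 14 of them within the last 150 bases of a window. CENPP, PMF1 and SPC24 at the bottom have none, and neither do CENPE, CENPQ, CENPK, SKA2, NSL1 and DSN1, which rose.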

How the data were processed

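The 6 arrays, 3 shNC and 3 shERCC6L by their titles, gave 49395 probe sets. The deposited values are linear intensities made by the authors with Affymetrix Expression Console, per the submitters' processing notes; its version, and how background and scale were handled, is not given in the sources used here. Without detection calls, no background limit for dim probe sets could be set. Precision is limited by the number of arrays. No array copied another.

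Of the probe sets, 44994 carried a single gene symbol in the platform annotation; 1832 with several symbols, and those with none, were left out. Intensities were taken to log2(signal + 16), the probe set with the highest mean was kept per gene, and limma 3.58.1 (R 4.3.3) tested the group difference on both sides with lmFit and eBayes, with no block and no filter. Scripts were tested on simulated data.

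Members, role groups, lists and motifs were chosen with earlier results of these data known. Values on every array are given for the 2 largest called changes of each role group, every member that fell, the 2 members nearest 0 and, beyond this rule, members chosen after their values were seen. Of the partner and cell cycle lists the 4 smallest p-values and all falls are named, with a few more chosen after their values were seen. Promoters come from RefSeq, GRCh38.p14. Alternatives were normalization, dim gene filter, probe set rule, pseudocount, replicate block, variance model, array weights, call rule, motif window and leaving out each array.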

Additional observations from a re-analysis of the deposited data

How the results depend on the processing

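The labels do not say whether same-numbered arrays share anything beyond the number. After removing group means these arrays correlated at 0.24, -0.14 and -0.01, and only the arrays numbered 1 correlated best with each other. With the replicate number as a block 22 members rose and 3 fell, and CENPA, DSN1 and SKA1 lost their calls (adjusted p = 0.058, 0.051 and 0.06). Among the alternatives run, the number of members that rose lay between 20 and 28 and the number that fell between 2 and 3, except under the rule of at least 1.2-fold, where they were 12 and 1. Leaving out each array gave 21 to 25 that rose and 2 to 3 that fell, and a median of 0.178 to 0.201. With quantile normalization the members' median was 0.159, and the cause of that shift was not tested. The genes that changed sign were uncalled on the brightest probe set: CENPI (-0.014) and ITGB3BP (-0.012) with quantile normalization, and CENPN with probe sets averaged (0.172), with array weights (0.009), without shNC replicate 1 (0.002) and without shERCC6L replicate 1 (0.027), over a leave-one-out range of -0.03 to 0.027. Of the 28 calls 23 held in all 16 refits, which do not include the stricter call rules; at an adjusted p under 0.01, 20 rises and 2 falls were left. In the last 150 bases of the windows CHR matches were in 45.2%, CCAAT matches in 45.2% and E2F matches in 29% of members' genes.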
